A study of Mus musculus with 2 samples.

Results

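The matrix metalloproteinases (MMPs), the ADAM and ADAMTS proteases and their tissue inhibitors (TIMPs) were described in mouse peritoneal macrophages, the phagocytes of the abdominal cavity. Members were the rows of the deposited gene table whose symbol follows the naming of these families (Mmp, Timp, Adam or Adamts and a number). This rule uses symbols and no measured value, though it was set with earlier results of these data known. They came to 79 of 50608 rows, with 23 Mmp, 4 Timp, 33 Adam and 19 Adamts genes. The study holds 2 libraries of RNA from C57BL6J peritoneal macrophages, labelled as pooled from males and females and as stage E15.5. One library is from cells given the solvent DMSO and the other from cells given GW3965, a compound that activates the liver X receptors (LXRs), nuclear receptors for oxidised cholesterol. The labels used here give neither dose nor time of treatment, and they name no stimulus and no genetic change. The GW3965 column carries a name that shares only its opening letters with that sample's label, so every statement on GW3965 rests on that match. All 8 LXR target genes looked at as a check were higher in that column, as given below. The recovered depth was 101866062 reads in the DMSO library and 75287120 in the other. All 8 macrophage markers were measured, and they summed to 5040 and 6038 FPKM. Markers of B cells, T and NK cells and mast cells summed to 0.726 to 2.72 FPKM per list in DMSO and to 1.09 to 4.03 FPKM in GW3965, with none of their genes at 0.

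MMPs are secreted or membrane-bound zinc proteases that cut collagens, elastin, proteoglycans and many cytokines. ADAMs are membrane proteases that release the outer part of other membrane proteins, and ADAMTSs are secreted relatives that process collagen and large proteoglycans. TIMPs block the active site of these enzymes. Macrophages are known for MMP12, an enzyme that degrades elastin, and for ADAM17, which frees tumour necrosis factor from the cell surface. LXR agonists are known to lower MMP9 in macrophages activated by inflammatory signals.

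Of the 10 Mmp genes that lie side by side on chromosome 9, 3 were expressed at 1 FPKM or more, and the other 7 stayed below 0.5 FPKM in both libraries. FPKM are fragments per kilobase of gene scaled to sequencing depth. The cluster spans 427 kb on GRCm38 (chr9:7272514-7699585) and runs in the order Mmp13, Mmp12, Mmp1b, Mmp3, Mmp1a, Mmp10, Mmp8, Mmp27, Mmp20 and Mmp7. The 250 bases before the RefSeq starts (GRCm38.p6, plus strand) are printed for 4 of these genes because they hold the expressed genes Mmp12, Mmp8 and Mmp27 and, for contrast, the weakly expressed collagenase gene Mmp13. Capitals mark matches, on either strand, to the AP-1 motif TGANTCA or the PU.1 motif GAGGAAGT. AP-1 is the Fos and Jun dimer, and PU.1 is the transcription factor that specifies macrophages. RefSeq gives Mmp12 a pair of starts.
Mmp12, upstream start, chr9:7344147-7344396: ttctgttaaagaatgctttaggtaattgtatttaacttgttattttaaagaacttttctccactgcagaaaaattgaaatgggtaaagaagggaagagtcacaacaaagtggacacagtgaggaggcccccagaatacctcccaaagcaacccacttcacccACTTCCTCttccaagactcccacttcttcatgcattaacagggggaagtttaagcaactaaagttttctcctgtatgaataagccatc
Mmp12, downstream start, chr9:7347124-7347373: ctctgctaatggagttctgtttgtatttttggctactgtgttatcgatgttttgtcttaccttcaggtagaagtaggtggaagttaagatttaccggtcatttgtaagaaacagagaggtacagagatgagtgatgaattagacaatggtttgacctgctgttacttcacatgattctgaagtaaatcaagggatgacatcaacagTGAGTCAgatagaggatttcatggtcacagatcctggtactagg
Mmp8, chr9:7558179-7558428: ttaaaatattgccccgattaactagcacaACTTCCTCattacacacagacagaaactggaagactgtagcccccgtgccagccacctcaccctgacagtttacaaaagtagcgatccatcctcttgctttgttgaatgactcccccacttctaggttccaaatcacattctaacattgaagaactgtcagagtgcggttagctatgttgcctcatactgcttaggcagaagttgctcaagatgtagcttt
Mmp27, chr9:7571146-7571395: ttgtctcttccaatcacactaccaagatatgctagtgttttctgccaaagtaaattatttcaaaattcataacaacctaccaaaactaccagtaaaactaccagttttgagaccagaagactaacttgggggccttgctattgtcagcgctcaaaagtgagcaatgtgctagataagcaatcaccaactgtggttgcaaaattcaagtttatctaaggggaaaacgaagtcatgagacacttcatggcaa
Mmp13, chr9:7272264-7272513: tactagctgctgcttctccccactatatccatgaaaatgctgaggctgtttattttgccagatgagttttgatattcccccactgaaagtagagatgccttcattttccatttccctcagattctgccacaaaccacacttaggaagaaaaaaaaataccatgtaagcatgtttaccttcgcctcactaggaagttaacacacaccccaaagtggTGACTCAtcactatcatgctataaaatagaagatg

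An AP-1 match was found before 8 of the 10 cluster genes, and Mmp8 and Mmp27 were the 2 without one in this window. Counted by window, 8 of the cluster's 12 (66.7%) hold this motif, against 6.75% of all 32851 RefSeq promoter windows of the same length. Mmp12 had it at -44 to -38 from the downstream start and not before the upstream start, where a PU.1 match lay at -88 to -81. Mmp13 had its AP-1 match at -35 to -29. A PU.1 match was present before Mmp12, Mmp8 and Mmp7 in the cluster. That is 3 of its 12 windows (25%), against 2.44% of all windows. The LXR element, a direct repeat of AGGTCA with 4 bases between and no mismatch allowed, was found in none of the 54 windows of the 49 members that have one in the table, and in 0.0152% of all windows. At a share that low, absence from 54 windows tells nothing about the members. A match describes letters in the window only.

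Mmp12, the macrophage elastase, was the most abundant member, with 414 (DMSO) and 584 FPKM (GW3965). Where a pair of values stands without library names, DMSO comes first. Mmp12 ranked 46th and 42nd of all 50608 rows. The GW3965 to DMSO ratio of these values was 1.41 (95% counting interval 1.40 to 1.42, from 295180 and 307424 reads). The interval covers counting error only. Each group is 1 library, so no difference given here has a replicate check. Mmp12 made up 87.9% of the summed Mmp FPKM in DMSO and 89.9% in GW3965. In bulk RNA, more cells of a type and more RNA per cell cannot be told apart.

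Differences were also set against the whole table. With 1 FPKM added to both values, the log2 of GW3965 over DMSO was formed per row, which understates changes of low genes. A row counted as measured at a mean of 1 FPKM or more, and as higher or lower at 1.5-fold on that scale. The median of the 11889 measured rows was 0.24, so a centred log2 ratio, with that median subtracted, is given as well. Mmp12 had a log2 ratio of 0.49, or 0.25 centred, below the 1.5-fold limit on both, and 6.12% of measured rows had a higher one. The central 90% of measured rows ran from -0.27 to 0.28 centred.

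**Figure D1:**
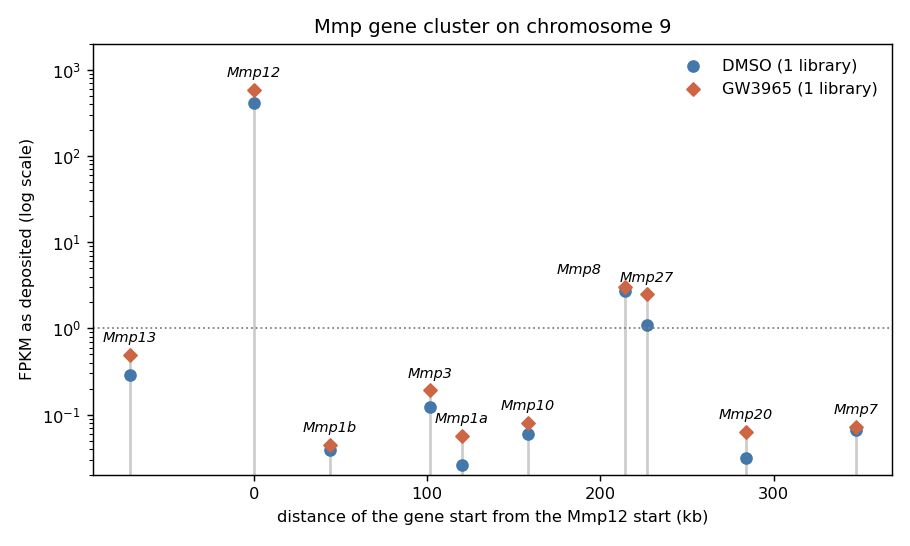
FPKM as deposited (log scale) of the 10 Mmp genes of the chromosome 9 cluster against the distance of each gene's start from that of Mmp12 in kb, with circles for the DMSO library and diamonds for the GW3965 library and a dotted line at 1 FPKM. Mmp12 stands at 414 and 584 FPKM and Mmp8 and Mmp27 above 1 FPKM, while the other 7 genes stay below 0.5 FPKM in both libraries.

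Mmp27 was the only one of the 12 measured members past 1.5-fold. This MMP lies next to Mmp8, with 2910 bases between the annotated genes, and had 1.11 (DMSO) and 2.48 FPKM (GW3965). The ratio was 2.24 (1.91 to 2.62), from 257 and 425 reads. Its log2 ratio of 0.72 was exceeded by 1.95% of measured rows. After centring it was 0.48 and no longer past the limit. Among measured rows, 3.46% were higher by 1.5-fold as deposited and 1.38% after centring, against 1 of 12 and 0 of 12 members. A count of 1 among 12 genes against that background is not a result about the family. No measured member was lower, against 0.0757% of measured rows as deposited and 0.336% centred. With no filter on low values, Mmp27 was the 1 of 79 members past the limit as deposited, where 0.972% of all 50608 rows were higher and 0.0336% lower. Centred and unfiltered, 0 of 79 members were past it, where 0.36% of all rows were higher and 0.207% lower.

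Mmp8, the collagenase best known from neutrophils, had 2.68 (DMSO) and 3.03 FPKM (GW3965), 1.13 times as much (1.0 to 1.27). Its centred log2 ratio was -0.11. Relative to Mmp8, Mmp27 was at 0.414 in DMSO and 0.820 in GW3965, a comparison within each library that no scaling can move and that was picked after the values were seen. Of 10 neutrophil markers 1 was measured, their summed level was 4.06 (DMSO) and 4.73 FPKM (GW3965), and none was at 0. Ly6g, a surface marker of mouse neutrophils, was at 0.036 (DMSO) and 0.178 FPKM (GW3965), from only 3 and 11 reads (ratio interval 1.31 to 27.7). The list had no common direction. S100a9, Ltf, Cxcr2 and Elane had a lower FPKM in GW3965, and S100a8, Camp, Ngp, Mpo and Retnlg, like Ly6g, a higher one. S100a8, at 3.29 and 3.60 FPKM, supplied most of the sum. The part of such cells in the Mmp8 level was not tested.

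The remaining cluster genes had few reads. Mmp13, a collagenase, had 0.284 (DMSO) and 0.494 FPKM (GW3965), from 74 and 95 reads, with a ratio of 1.74 (1.27 to 2.39). Mmp3 and Mmp10, which are stromelysins, had 21 and 9 reads in DMSO and 24 and 9 in GW3965. Mmp1a, Mmp1b, Mmp20 and Mmp7 had no more than 10 reads in DMSO and 15 in GW3965, and their intervals all included equal levels. Mmp1b overlaps Mmp12 on the opposite strand by 157 exon bases, and the labels do not state a strand setting.

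Outside the cluster, 2 Mmp genes were measured. Mmp19, an MMP found in activated leukocytes and in vessel walls, had 43.4 (DMSO) and 49.1 FPKM (GW3965), 1.13 times as much (1.10 to 1.16). Its centred log2 ratio was -0.07, close to the median of the table. Of its exon bases 22.3% are shared with Tmem198b on the opposite strand. Mmp14, the membrane-type enzyme that activates pro-MMP2 and cuts fibrillar collagen, had 7.96 and 8.10 FPKM, 1.02 times as much (0.967 to 1.07). Its centred value was -0.22, and 91.9% of measured rows had a higher log2 ratio.

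The gelatinase genes Mmp2 and Mmp9 were both far below 1 FPKM. Mmp9 had 0.170 (DMSO) and 0.230 FPKM (GW3965), which is 59 reads in each library. The FPKM ratio of 1.35 (0.927 to 1.97) is the factor between the library depths. Mmp2 had 0.175 and 0.219 FPKM, from 52 and 48 reads, and a ratio of 1.25 (0.826 to 1.89). At this depth neither gelatinase showed a difference between the libraries beyond counting error, and the Mmp9 interval allows both a small decrease and an increase. The other membrane-type genes, Mmp15, Mmp16, Mmp17, Mmp24 and Mmp25, had at most 0.142 FPKM in either library.

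**Figure D2:**
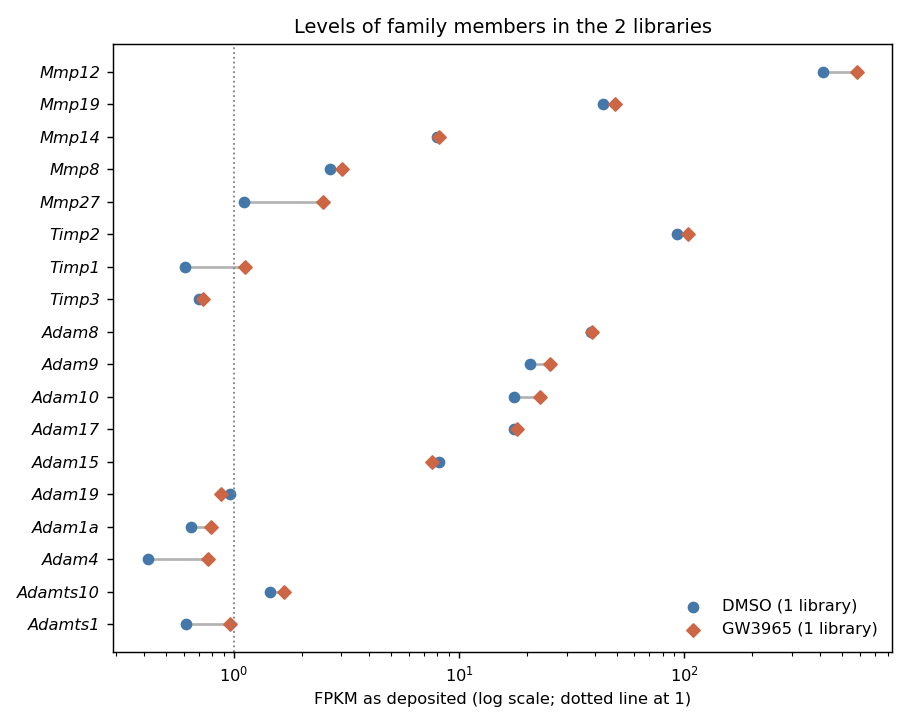
FPKM as deposited (log scale) of the 12 measured members and the 6 most abundant members below a mean of 1 FPKM, by family, with circles for the DMSO library and diamonds for the GW3965 library (1 library each, no error bars). The widest gaps are those of Mmp27 (1.11 and 2.48 FPKM), Timp1 (0.604 and 1.12 FPKM) and Adam4 (0.417 and 0.766 FPKM).

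Among the inhibitors, Timp2 was the only TIMP at an appreciable level and the second most abundant member of all. TIMP2 both inhibits MMPs and, bound to MMP14, takes part in the activation of pro-MMP2. It had 93.2 (DMSO) and 103 FPKM (GW3965), 1.11 times as much (1.09 to 1.13) with a centred value of -0.10. It made up 98.6% of the summed Timp FPKM in DMSO and 98.2% in GW3965. Mmp12 stood at 4.45 times the Timp2 level in DMSO and 5.65 times in GW3965, a comparison also picked after the values were seen.

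Timp1, the TIMP that cells release when stimulated, lay just below the limit for measured rows in its mean. It had 0.604 (DMSO) and 1.12 FPKM (GW3965), 1.85 times as much (1.29 to 2.68) from 54 and 74 reads. On the scale with 1 FPKM added its fold was 1.32. Timp3, which binds to the matrix and inhibits ADAM17, had 0.698 and 0.732 FPKM, 1.05 times as much (0.920 to 1.19), with 21.3% of its exon bases shared with Syn3 on the opposite strand. Timp4 had 0.053 and 0.071 FPKM. Fibroblasts and mesothelial cells also make TIMPs. Of 11 markers of those cells 6 were measured, and their summed level was 18.7 (DMSO) and 28.7 FPKM (GW3965). None was at 0. Lrrn4, Upk3b and Dcn had the highest ratios of this list, 1.88, 1.81 and 1.67, and were picked after their values were seen. The ratios of the other markers ran from 1.09 (Col1a1) to 1.65 (Krt8). Of the 6 measured markers 5 lay above the median of all measured rows, with a centred median of 0.23. With 1 FPKM added, 1 was higher by 1.5-fold as deposited and 0 after centring, against 3.46% and 1.38% of all measured rows. The part of fibroblasts and mesothelial cells in the Timp1 and Timp3 levels, and in those of Mmp2 and Adamts1, was not tested.

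The ADAM sheddases formed the broadest expressed group, with 5 of 9 somatic ADAMs that carry a catalytic zinc site measured and none past 1.5-fold on either scale. Adam8, an ADAM of leukocytes, was the most abundant, at 38.4 (DMSO) and 38.7 FPKM (GW3965), 1.01 times as much (0.985 to 1.03). Adam9 had 20.5 and 25.3 FPKM, 1.23 times as much (1.20 to 1.27) with a centred value of 0.05. Adam15 had 8.12 (DMSO) and 7.57 FPKM (GW3965), a ratio of 0.933 (0.892 to 0.976). It was the only one of 12 measured members with a lower FPKM as deposited in GW3965, against 766 of 11889 measured rows. With the columns scaled to the same sum of FPKM its log2 ratio turned from -0.09 to 0.15, where the median of all measured rows was 0.46. Its centred value of -0.33 lay outside the central 90% of measured rows, and 20.6% of its exon bases are shared with 4731419I09Rik on the opposite strand.

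Adam10, the main sheddase of Notch receptors, and Adam17, that of tumour necrosis factor, were at equal levels in the DMSO library and apart in the GW3965 library. Both had 17.6 FPKM in DMSO. In GW3965 Adam10 had 23.0 FPKM and Adam17 18.0 FPKM, so the ratio of Adam10 to Adam17 was 1.0 in DMSO and 1.28 in GW3965. This pair, too, was picked for comparison after the values were seen. Against the whole table Adam10 had a centred log2 ratio of 0.12 and Adam17 one of -0.21, both within the central 90%. Their own GW3965 to DMSO ratios were 1.30 (1.27 to 1.34) and 1.02 (0.996 to 1.05). Without replicates it cannot be said whether this gap exceeds the spread between cultures.

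**Figure D3:**
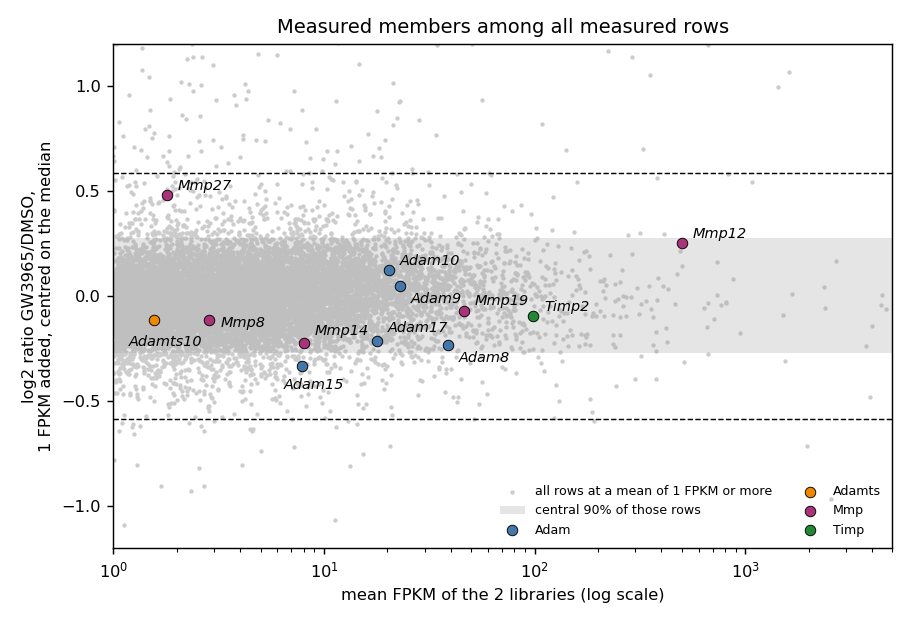
Log2 ratio of GW3965 to DMSO with 1 FPKM added, centred on the median, against the mean FPKM (log scale), for all 11889 measured rows (grey, 64 of them outside the axes) and the 12 measured members (coloured by family), with a band for the central 90% of rows and dashed lines at 1.5-fold. All 12 members lie between the dashed lines, from -0.33 for Adam15 to 0.48 for Mmp27, and 8 of them lie below 0.

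As a group, the 12 measured members had a median log2 ratio of 0.14, against 0.24 for all measured rows, or -0.11 after centring. Of these 12, 4 lay above the median of all measured rows (Mmp27, Mmp12, Adam10 and Adam9) and 8 below it. By comparison, all 8 LXR target genes looked at as a check of the treatment were higher by 1.5-fold after centring, with a median of 1.73. Abca1, the cholesterol exporter, had 19.9 and 261 FPKM. The macrophage markers, 8 of 8 measured, had a centred median of 0.02.

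ADAMTS genes were near the lower limit. Adamts10, known for its part in fibrillin microfibrils, was the only one measured, with 1.44 (DMSO) and 1.67 FPKM (GW3965), 1.16 times as much (1.05 to 1.28). Adamts1, which cuts versican and aggrecan, had 0.615 and 0.958 FPKM, 1.56 times as much (1.34 to 1.81) from 325 and 374 reads. On the scale with 1 FPKM added that is a fold of 1.21 with a centred value of 0.03. The aggrecanase genes Adamts4 and Adamts5 had 0.053 and 0.112 FPKM in DMSO and 0.095 and 0.120 FPKM in GW3965. The procollagen processing genes Adamts2, Adamts3 and Adamts14 had at most 0.165 FPKM in either library.

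Most members were barely detected. Of the 79, 67 had a mean below 1 FPKM, and 63 of these 67 had the higher FPKM in the GW3965 library. The whole table leaned the same way. Of 11889 measured rows 11123 were higher in GW3965, and the median of all 50608 rows was 0.087 (DMSO) and 0.148 FPKM (GW3965). The same held for olfactory receptor genes, which are silent outside sensory tissue: 936 of 1083 rows were higher in GW3965, with a median of 0.026 (DMSO) and 0.069 FPKM (GW3965). Their 95th percentiles, 0.081 and 0.160 FPKM, mark the level that silent genes reach in each library. Both percentiles were exceeded by 21 of the 67 low members and this limit was picked with the values in view. Over the rows with reads in both libraries, the median ratio was 1.52 for 66 low members and 2.37 for 941 olfactory receptor rows.

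The germ cell ADAMs, whose products serve sperm maturation and fertilisation, had levels near those of the olfactory receptor rows. Of 21 such rows, none was measured and 20 were higher in GW3965, with a median of 0.032 (DMSO) and 0.063 FPKM (GW3965) and a median ratio of 1.93. Adam20 was listed at 0 in DMSO and at 0.056 FPKM in GW3965. Adam34 was the exception, with 0.144 (DMSO) and 0.065 FPKM (GW3965). Only Adam1a and Adam4 of this group exceeded both percentiles. Adam4 had 0.417 and 0.766 FPKM, 1.84 times as much (1.39 to 2.45) from 89 and 121 reads. Adam1a had 0.646 and 0.794 FPKM, but 63.7% of its exon bases are shared with Gm42878 and 24% with Mapkapk5 on the same strand, so its value is uncertain. The part of stray reads in the low members was not tested.

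Adam19, a sheddase of neuregulins, was the low member nearest the limit and differed from most of the others, with 0.960 (DMSO) and 0.881 FPKM (GW3965). That ratio of 0.918 (0.813 to 1.04) included equality, and the log2 ratio turned from -0.06 to 0.07 with the same sum of FPKM. Adam12, a sheddase of growth factor ligands, had 0.288 and 0.513 FPKM, 1.79 times as much (1.57 to 2.03). Adam28 and Adam33 stood at 0.031 and 0.247 FPKM in DMSO and at 0.085 and 0.248 FPKM in GW3965.

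**Figure D4:**
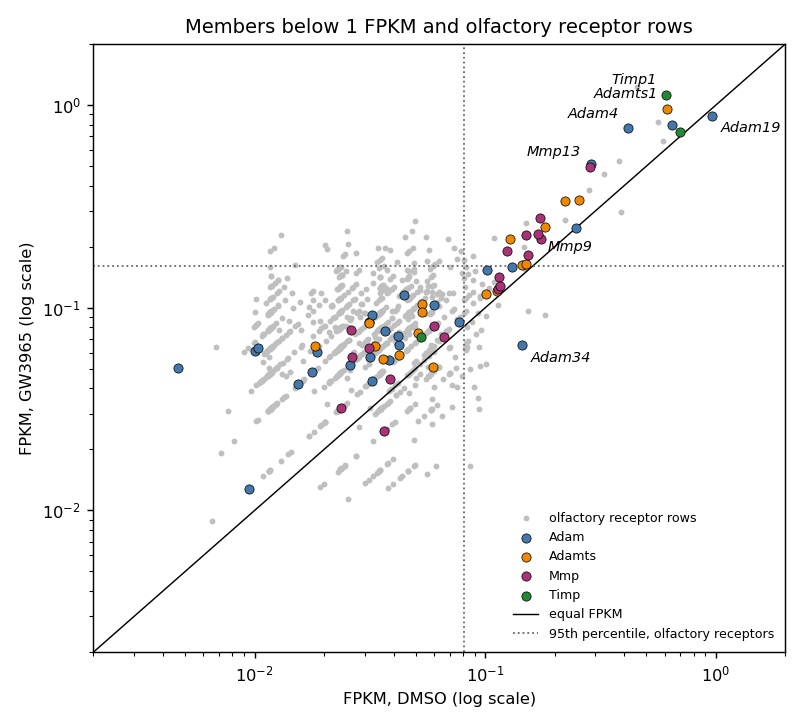
FPKM in GW3965 against FPKM in DMSO (both log scales) for the members below a mean of 1 FPKM (coloured by family) and the olfactory receptor rows (grey), with a line of equal FPKM and dotted lines at the 95th percentiles of the olfactory receptors, 0.081 and 0.160 FPKM. Rows with a 0 in a library, 1 member and 142 olfactory receptors, are not drawn, and 21 members lie beyond both dotted lines.

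Genes that mature, localise or oppose these proteases were taken from lists of known partners. Of the 11 genes for the maturation and traffic of ADAM10 and ADAM17, 7 were measured, none was past 1.5-fold, and all 7 had a log2 ratio below the median of all measured rows, with a centred median of -0.14. Rhbdf2 (iRhom2), which carries ADAM17 to the cell surface in leukocytes, had 6.55 (DMSO) and 6.80 FPKM (GW3965). Frmd8, which stabilises iRhoms, had 8.04 and 8.68 FPKM. The ADAM10 chaperones Tspan14 and Tspan5 had 37.7 and 41.7 FPKM and 11.8 and 13.4 FPKM, while Tspan15 and Tspan33 stayed below 0.1 FPKM in both libraries. Furin, the convertase that removes the propeptide of ADAMs and of membrane-type MMPs, had 7.39 and 8.72 FPKM with a centred value of -0.03.

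Beyond the TIMPs, 2 of 8 genes for inhibitors and clearance were measured. Lrp1, the endocytic receptor that removes MMPs, TIMPs and plasminogen activators from the cell surface, had 46.9 (DMSO) and 39.0 FPKM (GW3965), 0.831 times as much (0.822 to 0.840). Its centred log2 ratio was -0.50, lower than that of 99.4% of measured rows, but not past the limit. With the same sum of FPKM its log2 ratio was 0.00, against -0.26 as deposited. The median of all measured rows was 0.46 with the same sum and 0.24 as deposited. The lower FPKM of Lrp1 thus depends on the scaling, while its ratio lay below that median on both. Cst3, cystatin C, had 249 and 294 FPKM and a centred value of 0.00. Reck, a membrane inhibitor of MMPs, had 0.146 and 0.198 FPKM.

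In the plasminogen system, which activates several pro-MMPs, the urokinase receptor Plaur had 59.4 (DMSO) and 52.8 FPKM (GW3965), 0.889 times as much (0.867 to 0.912) with a centred value of -0.41. This direction also turned with the same sum of FPKM, from a log2 ratio of -0.17 to 0.10, against 0.46 for the median measured row. Its ligand Plau, urokinase, had 10.2 and 12.6 FPKM, with a centred value of 0.04. Of 8 genes 3 were measured and none was past 1.5-fold. Among proteins that dock MMPs at the membrane, 5 of 6 were measured. Of these, 1 was lower by 1.5-fold on both scales, against 0.0757% of measured rows as deposited and 0.336% centred. That gene, the integrin subunit Itgb3, had 14.6 and 7.85 FPKM and a centred value of -1.06. A lower log2 ratio than that of Itgb3 was found in 0.0168% of measured rows. With the same sum of FPKM its log2 ratio was -0.58, against 0.46 for the median measured row. That is just short of 1.5-fold, so no gene of the list was then lower. Its partner Itgav had 8.19 and 11.8 FPKM and a centred value of 0.24. Cd44, which holds MMPs at the cell surface, had 26.9 and 29.3 FPKM, and Bsg (EMMPRIN), an inducer of MMPs, 32.7 and 37.8 FPKM.

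Transcription factors that act on Mmp promoters had 9 of 12 members measured, with a centred median of -0.13. Fosl2, an AP-1 subunit, had 3.43 (DMSO) and 5.71 FPKM (GW3965), 1.66 times as much (1.59 to 1.74), and was the 1 member higher by 1.5-fold. After centring, its log2 ratio was 0.35 and none was past the limit. Among measured rows, 3.46% were higher by 1.5-fold as deposited and 1.38% centred. Fos had 2.96 and 3.84 FPKM, and Junb 17.6 and 19.8 FPKM. Spi1, which encodes PU.1, had 49.3 and 52.2 FPKM and a centred value of -0.16. Of the 7 relatives that lack protease function or fall outside the families' naming, Adamtsl5 was the only one measured, with 7.62 and 6.76 FPKM and a centred value of -0.39. Its log2 ratio turned from -0.15 to 0.08 with the same sum of FPKM, against 0.46 for the median measured row.

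**Figure D5:**
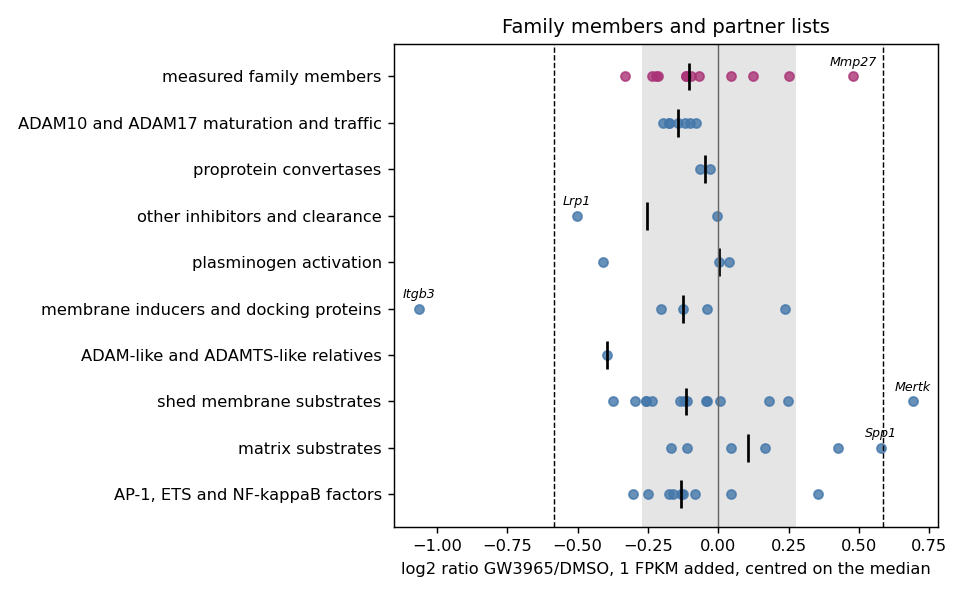
Centred log2 ratios (x axis) of the measured family members (top row) and of the measured genes of 9 partner lists (other rows), with a short bar at each list's median, a grey band for the central 90% of all measured rows and dashed lines at 1.5-fold. Itgb3 (-1.06) and Mertk (0.69) are the points beyond the dashed lines.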

How the data were processed

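RNA of 2 peritoneal macrophage samples was sequenced, and the authors deposited 1 table of FPKM values with 1 column per library. Per the submitters' processing notes, STAR 2.3.0 and HTSeq 0.5.4p3 and the build GRCm38 (mm10) were used. The annotation, strand setting and handling of multiple matches were not given in the sources used here.

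Members, gene lists and limits were chosen with earlier results of these data known. Named genes are all measured members, the 6 most abundant members below that limit and up to 4 measured genes of each partner list with the largest absolute log2 ratio. Other genes are named after their values were seen.

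Depth was worked out from the spacing of low deposited FPKM values and the exon lengths of GENCODE M21, less 99 bases, giving 101866062 reads for DMSO and 75287120 for GW3965. Reads of a gene come from the length nearest the M21 length (between 0.4 and 2 times it) that gives whole reads in both libraries. All 12 measured members had such a length, against 1 of 12 with the depth moved by 0.1%. A single length qualified for 20 of 79 members, and for the others the reads and the interval's width depend on the length used, while the ratio does not. Ratios have exact conditional (Clopper-Pearson) 95% intervals. The depth and interval steps were tested on simulated data. With 1 library per group there is no test. Promoter sequences are from RefSeq (GRCm38.p6), matched by symbol for 49 of 79 members.

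The alternatives were pseudocounts of 0.1 and 0.5, other filters, other scalings, a 2-fold limit and leaving out the germ cell ADAMs. Software versions were numpy 2.4.6 and scipy 1.17.1 for the calculations, pandas 2.3.3 for tables, matplotlib 3.10.9 for plots, under Python 3.11.15.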

Additional observations from a re-analysis of the deposited data

How the results depend on the processing

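No paired analysis was possible because neither condition was sequenced more than once. Against 1 member higher by 1.5-fold (Mmp27), the count was 3 with both columns scaled to the same sum of FPKM (Mmp27, Mmp12 at a log2 ratio of 0.76 and Adam10 at 0.62). It was 0 at a mean FPKM of at least 5, which leaves Mmp27 out, and 0 after centring, at equal upper quartiles, at the 2-fold limit and with both centring and that limit. Mmp27 had a log2 ratio of 0.48 centred and 0.51 with the same upper quartile. The count of lower members was 0 under each of these settings. The median log2 ratio of measured members, 0.14 as deposited, was 0.37 with the same sum, -0.11 centred and -0.12 with the same upper quartile, and the median of all measured rows moved in step, to 0.46, 0.00 and 0.00. Of the 11889 measured rows, 411 (3.46%) were higher as deposited and 1024 at pseudocount 0.1. Under the filter of 5 FPKM it was 224 of 5053 rows (4.43%). Of the 11889, 2604 (21.9%) were higher at equal sums, 164 centred, 162 at equal upper quartiles, 117 at 2-fold and 80 with both centring and 2-fold. Lower rows numbered 9, 20, 5, 1, 40, 35, 0 and 3 under the same settings and 14 with a pseudocount of 0.5. With no filter they were 17 of all 50608 rows. Of 90 values of the 18 named members, 84 kept the call they had, 2 dropped below 1.5-fold and 4 passed it. Timp1 (0.79) and Adam4 (0.75) passed it with a pseudocount of 0.1. Of 140 values of partner genes 127 kept theirs, 7 dropped below and 6 passed. The call for Itgb3 was lost with the same sum (-0.58), and those for Spp1, Dcn and Fosl2 on centring and at equal upper quartiles. No value past 1.5-fold changed direction. Among values short of it, directions turned with the scaling. With the same sum, 2 of 18 members (Adam15 and Adam19) and 3 of 28 partner genes (Lrp1, Plaur and Adamtsl5) turned upward. After centring 9 members and 11 partner genes turned downward, and at equal upper quartiles 10 and 14. Depth limits genes under about 0.1 FPKM, where 1 read of a 1 kb length is worth 0.0098 (DMSO) and 0.0133 FPKM (GW3965).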

Other observations

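The proteins that these enzymes cut were looked at as further lists. Of 22 membrane proteins known to be shed by ADAMs or MMPs, 14 were measured, with a centred median of -0.12. Of these, 1 was higher by 1.5-fold on both scales, against 3.46% of measured rows as deposited and 1.38% centred. None was lower, against 0.0757% and 0.336%. Mertk, the engulfment receptor and a known LXR target that ADAM17 sheds, was the 1 higher, with 6.79 (DMSO) and 13.9 FPKM (GW3965), 2.05 times as much (1.95 to 2.15). Axl, its relative, had 1.40 and 2.38 FPKM, 1.70 times as much (1.53 to 1.88). With 1 FPKM added its log2 ratio was 0.49, short of 1.5-fold, or 0.25 centred. It passed 1.5-fold with pseudocounts of 0.1 (0.72) and 0.5 (0.60) and with the same sum of FPKM (0.69). Of the tumour necrosis factor receptors, Tnfrsf1a was at 20.5 and 27.9 FPKM (centred 0.18) and Tnfrsf1b at 69.8 and 67.2 FPKM (centred -0.30). Tnf itself had 1.51 and 1.89 FPKM, and Trem2, a lipid sensing receptor shed by ADAM10 and ADAM17, 63.3 and 75.4 FPKM. Tnfrsf1b and Tnf were picked after their values were seen.

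Of 13 matrix proteins that MMPs and ADAMTSs cut, 6 were measured. Of these, 2 were higher by 1.5-fold as deposited and 0 after centring, against 3.46% and 1.38% of measured rows. Spp1, osteopontin, a secreted substrate of MMPs, had 598.5 (DMSO) and 1059 FPKM (GW3965), 1.77 times as much (1.76 to 1.78), with a centred log2 ratio of 0.58 just inside the limit of 1.5-fold. Dcn, decorin, had 6.91 and 11.6 FPKM (centred 0.42), Col3a1 5.08 and 7.07 FPKM (0.17) and Col1a2 2.24 and 2.97 FPKM (0.05). Dcn and Col3a1 are also among the 11 fibroblast and mesothelial markers, whose summed level was 18.7 and 28.7 FPKM. The part of those cells in these values was not tested. The elastin gene Eln, substrate of the macrophage elastase and picked after its values were seen, had 0.203 (DMSO) and 0.261 FPKM (GW3965).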
